A study of Mus musculus with 4 samples.

Results

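The genes described here are 40 cell cycle genes of the mouse, 14 used to copy DNA in S phase and 26 used in G2 and mitosis, out of 32285 genes in the count tables. They were chosen by name, and all 40 symbols were found once each. They were followed in each cell class of 4 single-cell libraries from Pan02 tumours, with the host cells of the tumour beside the cancer cells. Pan02 is a mouse pancreatic cancer line, here injected under the skin of female C57BL/6 mice aged 6 to 7 weeks, whose own immune system is intact. Mice were put into groups at a tumour size near 50 mm3. The control library came from mice given IgG, and the others from mice given anti-PD-1, which blocks the checkpoint receptor PD-1, anti-LIF, which blocks the cytokine LIF, or both antibodies (combo). Per the labels, an injection held 200 µg of anti-PD-1, IgG and anti-LIF were dosed at 25 mg/kg, and mice were injected 3 times weekly. The doses of each arm are not written out. Cells of 3 samples were combined in each library, so each group is 1 library, animals cannot be told apart, and no difference between groups can be tested.

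A cell copies its DNA in S phase and divides in mitosis, and the genes for each step are transcribed shortly before they are needed. The E2F factors switch on the replication genes at the end of G1. The DREAM and MuvB complexes, with B-Myb and FoxM1, time the mitotic genes, and the same complexes keep them off in resting cells. In tumours these genes mark the dividing part of the cancer cells, but activated T cells, some macrophages, fibroblasts and new vessel cells divide as well.

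The promoters of the members carry letters that such factors read, and 5 promoters are printed here to show them, 3 of mitotic genes and 2 of replication genes. RefSeq windows of 300 bases (250 before the gene start and 50 after it, build GRCm38.p6) were matched to 34 of the 40 members, and each is printed 5′ to 3′ on the strand of its gene. Capitals mark matches on either strand to TTTGAA (the usual core of the CHR element read by MuvB), to CCAAT (the box bound by NF-Y), and to TTTCCCGC or TTTGGCGC (E2F sites). On the opposite strand the box reads ATTGG, the core reads TTCAAA and the second E2F site reads GCGCCAAA. No match overlaps another in these windows. Top2a, the topoisomerase that untangles the copied chromosomes, lies at chr11:99024140-99024439 on the minus strand. Cdk1, the kinase that starts mitosis, lies at chr10:69352863-69353162 on the minus strand. Ccnb2, a cyclin B that switches Cdk1 on, lies at chr9:70421505-70421804 on the minus strand. Mcm5 and Mcm6, subunits of the helicase that opens the DNA for copying, lie at chr8:75109259-75109558 on the plus strand and chr1:128359656-128359955 on the minus strand.

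Top2a: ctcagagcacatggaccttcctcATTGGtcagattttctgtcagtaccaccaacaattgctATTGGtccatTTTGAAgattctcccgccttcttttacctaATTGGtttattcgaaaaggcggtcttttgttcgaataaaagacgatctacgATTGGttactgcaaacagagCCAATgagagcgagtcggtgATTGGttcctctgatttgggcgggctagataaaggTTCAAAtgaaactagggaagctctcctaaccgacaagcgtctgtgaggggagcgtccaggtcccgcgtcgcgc
Cdk1: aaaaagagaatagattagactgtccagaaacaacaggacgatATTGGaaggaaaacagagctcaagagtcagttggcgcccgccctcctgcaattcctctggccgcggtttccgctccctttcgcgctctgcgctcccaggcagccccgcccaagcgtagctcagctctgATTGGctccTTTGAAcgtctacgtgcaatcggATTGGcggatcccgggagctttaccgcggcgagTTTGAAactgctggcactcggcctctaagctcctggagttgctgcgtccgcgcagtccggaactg
Ccnb2: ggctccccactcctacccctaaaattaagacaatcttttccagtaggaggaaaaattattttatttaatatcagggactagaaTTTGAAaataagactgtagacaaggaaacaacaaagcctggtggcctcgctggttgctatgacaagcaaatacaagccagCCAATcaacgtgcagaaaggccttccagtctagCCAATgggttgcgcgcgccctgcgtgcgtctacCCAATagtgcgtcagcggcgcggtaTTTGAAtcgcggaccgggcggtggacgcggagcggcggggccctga
Mcm5: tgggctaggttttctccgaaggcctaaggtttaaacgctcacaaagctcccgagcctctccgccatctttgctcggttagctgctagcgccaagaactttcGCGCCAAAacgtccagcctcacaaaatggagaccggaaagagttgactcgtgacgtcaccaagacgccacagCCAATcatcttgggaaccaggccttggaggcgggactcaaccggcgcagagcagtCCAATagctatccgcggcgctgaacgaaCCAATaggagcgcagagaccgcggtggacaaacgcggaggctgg
Mcm6: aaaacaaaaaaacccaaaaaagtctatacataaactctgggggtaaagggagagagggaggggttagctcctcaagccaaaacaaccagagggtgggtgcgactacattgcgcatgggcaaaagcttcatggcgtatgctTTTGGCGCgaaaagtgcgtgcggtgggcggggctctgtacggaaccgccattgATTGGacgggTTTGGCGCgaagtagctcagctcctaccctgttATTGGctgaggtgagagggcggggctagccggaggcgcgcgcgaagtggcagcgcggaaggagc

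TTTGAA was present in the windows of 17 of 22 mitosis members (77.3%) and 1 of 12 replication members (8.33%, Mcm2), against 20.2% of the 27025 genes with a window. CCAAT was present in 19 of the 22 mitosis members (86.4%) and 9 of the 12 replication members, against 41.1% of all genes. The E2F letters were present in 5 of 12 replication members (41.7%: Mcm3, Mcm5, Mcm6, Mcm7 and Hells) and 0 of 22 mitosis members, against 1.80% of all genes. The 2 sets of members thus differed in these letters, and CCAAT was frequent in both. A match is a description of the sequence, and binding was not measured.

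In all, 63443 cells were kept, with median UMI counts (sequenced RNA molecules per cell) from 1674.5 to 2288 by library. Of them, 79.8% carried the marker genes of 1 class and were gated to it. Cells with markers of more than 1 class (5.57% to 12.0% by library, highest in combo) were set aside. Class names stand for cells that resemble the named type. Every marker of all 14 classes was detected and was over 2-fold higher in its class than in the other classes pooled. The gates read most of these same markers, so this follows from the gating and is no check of the class names. The cancer markers, keratins among them, were not particular to the cancer class: summed, they were at 2354, 2136, 3907 and 3015 CPM (UMIs of a gene, scaled to a common total of the class) there and at 11423, 12666, 9813 and 3430 CPM in the small class of host gland cells (49, 48, 130 and 466 cells). Xist, which female host cells transcribe, was at 4.09, 3.65, 6.26 and 7.89 CPM in the cancer class and at 147, 175, 204 and 200 CPM in T cells. Values listed together keep 1 order: control first, then anti-PD-1, then anti-LIF, then combo. Depth differed between classes and libraries: the median cancer cell had 9448.5, 5766, 3617 and 6282.5 UMIs, and the median T cell had 1537, 1270, 1174 and 1547.5. Each cell was therefore thinned at random to 1000 UMIs, and a cell was called dividing when at least 3 different members were seen in it. Intervals are 95% and cover counting error only.

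Cancer cells were more often in cycle in every treated library than in control. Dividing cells made up 25.1% [24.0 to 26.2] of 5695 cancer cells in control, 35.5% [33.6 to 37.5] of 2448 in anti-PD-1, 54.3% [51.9 to 56.7] of 1672 in anti-LIF and 48.9% [46.7 to 51.1] of 2090 in combo. The 4 intervals did not overlap, with control lowest and anti-LIF highest. On the log2 scale the share was 0.50 [0.38 to 0.62] above control in anti-PD-1, 1.11 [0.99 to 1.23] above it in anti-LIF and 0.96 [0.85 to 1.08] above it in combo. Against the single antibodies, combo was 0.46 [0.33 to 0.59] above anti-PD-1 and -0.15 [-0.28 to -0.02] from anti-LIF. The latter interval included 0 at 2000 UMIs per cell (-0.13), with a stricter gate (-0.14 [-0.28 to 0.01]) and with a mitochondrial limit of 10% (-0.10 [-0.32 to 0.12]). The comparisons with control all use the same control library.

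Cells under 1000 UMIs were left out, so these cells were 5695 of 6210 gated cancer cells in control and 2448 of 2807, 1672 of 2069 and 2090 of 2422 in the treated libraries. At full depth the shares were 73.2%, 70.9%, 78.5% and 78.4%, which follow depth as well as division, so their order was not read. Cells with exactly 2 members, just under the threshold, were 11.9%, 12.0%, 11.5% and 10.7% of cancer cells, and cells with exactly 3 were 6.18%, 7.72%, 8.73% and 9.14%. Division genes outside the members gave a check of the call. The 30 such genes (Smc4, Stmn1, Cks2, Pbk and others) had 5.82, 6.01, 6.48 and 6.53 UMIs per dividing cancer cell of 1000 UMIs, and 1.66, 1.67, 2.26 and 2.12 per other cancer cell.

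**Figure D1:**
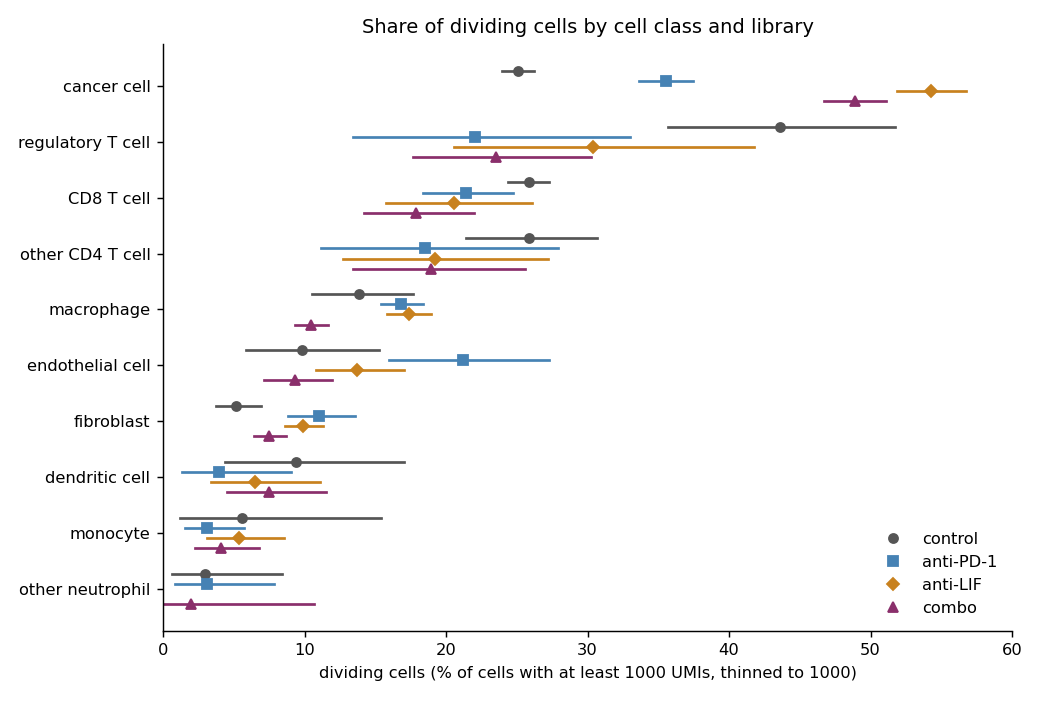
Share of dividing cells (x axis, percent of cells thinned to 1000 UMIs, with 95% counting intervals) by cell class and library, for libraries with at least 50 such cells in the class. Cancer cells run from 25.1% in control to 54.3% in anti-LIF, while CD8 T cells run from 25.8% in control down to 17.8% in combo.

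A stricter mitochondrial limit, 10% in place of 20%, kept 1575 of the 5695 control cancer cells and 627 of 2448, 512 of 1672 and 643 of 2090 in the treated libraries. The dividing shares were then 35.5%, 47.0%, 62.9% and 58.8%, higher in each library, with control lowest, anti-PD-1 next and overlapping intervals in anti-LIF (58.5 to 67.1) and combo (54.9 to 62.6). Fibroblast markers (6 collagen and matrix genes such as Col1a2 and Dcn) had 1.34, 1.24, 0.993 and 1.22 UMIs per cancer cell outside division and 0.377, 0.528, 0.579 and 0.656 per dividing cancer cell, so dividing cells had fewer in each library. With the 10% limit the log2 ratio of the dividing share to control was 0.83 in anti-LIF and 0.73 in combo. The part of matrix RNA in the result was not tested.

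T cells, which divide after they meet antigen, had their highest share in control. Their dividing share was 26.0% [24.8 to 27.2] of 5066 cells in control, 20.1% [17.6 to 22.7] of 985 in anti-PD-1, 20.5% [17.4 to 23.9] of 625 in anti-LIF and 18.5% [16.1 to 21.0] of 1029 in combo. By this call control stood above the 3 treated libraries, whose intervals overlapped one another. Single genes did not all have this order. T cells with an Mki67 UMI were 5.13%, 5.38%, 6.40% and 4.76%, highest in anti-LIF. Those with a Top2a UMI were 7.28%, 6.80%, 6.88% and 6.90%, close together, and those with an Mcm5 UMI were 6.67%, 4.97%, 4.64% and 4.66%, highest in control. The log2 ratios to control were -0.37 [-0.60 to -0.16], -0.35 [-0.62 to -0.08] and -0.49 [-0.72 to -0.27]. The anti-LIF interval included 0 with 5 members as threshold (-0.33 [-0.77 to 0.08]) and at 2000 UMIs (-0.28 [-0.59 to 0.02]). Thinning kept 5066 of 6198 gated T cells in control and 985 of 1540, 625 of 1039 and 1029 of 1300 in the treated libraries, and the shares at full depth were 41.8%, 30.1%, 25.6% and 31.7%. Many T cells lay near the threshold: 23.9%, 22.5%, 21.9% and 23.5% had exactly 2 members, and 11.3%, 10.1%, 10.2% and 9.52% had exactly 3. The 30 other division genes had 4.80, 4.29, 4.49 and 3.62 UMIs per dividing T cell and 1.13, 0.986, 0.976 and 1.02 per other T cell. In anti-LIF the level of the members did not move with the share: all members together were at 3372 CPM of T cell UMIs in control and at 2822, 3337 and 3093 CPM in the treated libraries, so no order of anti-LIF against control is read for T cells.

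Hmgb2, a chromatin protein, and Pcna, the sliding clamp of DNA polymerase, weighed more on the T cell call than on that of cancer cells. Among T cells below the threshold, 27.8% to 31.6% had a Hmgb2 UMI and 27.7% to 32.8% had a Pcna UMI. In cancer cells below it the ranges were 10.2% to 11.5% for Hmgb2 and 15.2% to 21.7% for Pcna. Without these 2 genes the dividing share was 13.8%, 9.54%, 10.4% and 8.84% of T cells and 20.9%, 30.4%, 48.9% and 43.5% of cancer cells. The order of the 4 libraries within each class was the same with and without this pair. The order of the 2 classes in control turned with the settings: T cells against cancer cells were 26.0% against 25.1% as reported, 50.0% against 36.9% with 2 members as threshold, 10.7% against 13.9% with 5 members, and 61.2% against 35% at 2000 UMIs. No order of T cells and cancer cells is therefore read in control.

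Among T cells, those with Foxp3 (regulatory T cells, which restrain other T cells) had the highest share in control, 43.6% [35.7 to 51.8] of 156 cells. The treated libraries had 22.1% of 77, 30.4% of 79 and 23.5% of 187 cells. The log2 ratios were -0.98 [-1.84 to -0.20], -0.52 [-1.26 to 0.17] and -0.89 [-1.47 to -0.32], so the interval in anti-LIF included 0. CD8 T cells had 25.8%, 21.4%, 20.6% and 17.8%, and other CD4 T cells 25.8%, 18.5%, 19.2% and 19.0%. Gamma delta T cells had 17.1% in control, 27.5% in anti-LIF and 8.33% in combo, and 1 of 30 cells divided in anti-PD-1. Regulatory cells therefore stood above the CD8 cells of their own library in control, while in anti-PD-1 the 2 shares lay within each other's counting error.

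Macrophages and monocytes, joined in 1 class, had a dividing share of 12.2% [9.48 to 15.5] of 490 cells in control, 15.2% [14.0 to 16.5] of 3112 in anti-PD-1, 15.2% [13.9 to 16.5] of 3045 in anti-LIF and 9.88% [8.92 to 10.9] of 3521 in combo. The control interval overlapped all the others, and the log2 ratios to control, 0.31, 0.31 and -0.31, had intervals that included 0. These calls changed with the settings. With 5 members as threshold the ratios were 0.72 [0.15 to 1.33] in anti-PD-1 and 0.58 [0.02 to 1.20] in anti-LIF. Without Hmgb2 and Pcna they were 0.60 [0.13 to 1.11] and 0.48 [0.01 to 0.99], and at 500 UMIs 0.78 [0.28 to 1.33] and 0.69 [0.19 to 1.24]. Combo was at -0.55 [-0.98 to -0.09] with the stricter gate, at -0.30 [-0.57 to -0.01] with 2 members and at 0.02 [-0.50 to 0.58] at 500 UMIs. Combo was lower than each single antibody, by a log2 ratio of -0.62 [-0.83 to -0.42] in both cases. Cells with C1q, the complement genes of tissue macrophages, divided more often (13.8%, 16.8%, 17.4% and 10.5%) than cells with the monocyte genes Ly6c2 and Ccr2 (5.56%, 3.13%, 5.33% and 4.08%). At full depth the shares of the joint class were 32.4%, 33.0%, 32.9% and 37.0%, with combo the deepest library of this class. The cells of combo were thus highest before thinning and lowest after it. Cytokeratins Krt8 or Krt18, which macrophages should lack, were seen in 13.3% of dividing and 4.42% of other macrophages and monocytes in control and in 4.64% and 4.51% in anti-PD-1. Their part in the control value was not tested.

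Fibroblasts, which build the collagen matrix, had 5.15% [3.70 to 6.94] dividing cells in control, 11.0% [8.83 to 13.6] in anti-PD-1, 9.91% [8.61 to 11.3] in anti-LIF and 7.50% [6.46 to 8.66] in combo. All 3 log2 ratios to control had intervals above 0: 1.10 [0.53 to 1.69], 0.95 [0.45 to 1.47] and 0.54 [0.04 to 1.08]. Endothelial cells, which line vessels, had 9.83%, 21.2%, 13.7% and 9.33%. Anti-PD-1 was highest there, with a log2 ratio of 1.11 [0.28 to 2.00] to control and of -1.18 [-1.77 to -0.59] for combo over it. Its interval [16.0 to 27.2] overlapped that of anti-LIF [10.8 to 17.1]. Dendritic cells, which carry antigen to T cells, had 9.38%, 3.97%, 6.52% and 7.47%, with intervals that all overlapped. B cells were few, with 3 of 15 cells dividing in control, 13 of 34 and 17 of 31 under the single antibodies anti-PD-1 and anti-LIF, and 12 of 57 in combo.

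Classes that should hold no dividing cells gave the background of the call. Neutrophils without precursor genes, which have left the cycle, had 3 of 101 cells called dividing in control (2.97%), 4 of 128 in anti-PD-1 (3.13%) and 1 of 50 in combo (2.00%). In anti-LIF 0 of 25 cells were, with an interval that reached 13.7%. Their median depths among thinned cells were 1207, 1302, 1306 and 1230 UMIs, against 1753, 1687, 1599 and 1753 in T cells. Skeletal muscle fibres had 0 of 24 in anti-PD-1, which allows up to 12.5%, 0 of 48 in combo, which allows up to 6.25%, and 1 of 11 in anti-LIF. Monocytes (3.13% to 5.56%) thus lay near this background, and cancer cells and T cells lay above the neutrophil interval of each library. Macrophages with C1q did so in control, anti-PD-1 and anti-LIF. In combo they (10.5%) and the joint class (9.88%) lay within the wide interval of the 50 neutrophils there [0.0506 to 10.6]. Control fibroblasts, at 5.15% [3.70 to 6.94], and the dendritic cells of anti-PD-1, at 3.97% [1.30 to 9.02], also lay within the interval of the control neutrophils [0.617 to 8.44]. So did combo fibroblasts (7.50%) and the dendritic cells of anti-LIF (6.52%) and combo (7.47%). The fibroblast ratios thus rest on a control value near the background, and in combo over control both values lay within that interval. At this depth and threshold, the medians of selected classes were taken over the libraries with at least 50 cells. They fell from cancer cells (42.2%) through T cells (20.3%) and macrophages and monocytes (13.7%) to endothelial cells (11.8%). Next came fibroblasts (8.71%), dendritic cells (7.00%) and neutrophils without precursor genes (2.97%). Cancer cells and T cells overlapped in their library values, macrophages and monocytes lay below T cells in all of them, and neighbours from there to dendritic cells overlapped. Not in this list were B cells (21.1%, 1 library), natural killer cells (14.8%, 2 libraries) and mast cells and basophils (11.8%, 3 libraries). Host gland cells (9.75%, 2 libraries) and plasma cells (7.25%, 1 library) were not in it either. The place of T cells above macrophages and monocytes turned with the settings in anti-PD-1 and anti-LIF. Without Hmgb2 and Pcna, T cells were at 9.54% against 12.4% in anti-PD-1 and at 10.4% against 11.4% in anti-LIF. At 500 UMIs they were at 8.05% against 10.5% and at 8.08% against 9.87%. T cells stayed above in control and combo at both settings. No order of these classes is therefore read in anti-PD-1 and anti-LIF.

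Cancer cells held over 50% of the RNA of these genes in each library. They carried 64.0%, 53.0%, 53.8% and 57.3% of the member UMIs, beside 63.3%, 43.0%, 32.0% and 32.5% of the UMIs of all genes. In control the members' share was thus close to the class's share of all RNA, and in the treated libraries it was above it. By number, cancer cells were 33.3%, 19.5%, 14.8% and 14.8% of kept cells. Among dividing cells, 41.6%, 39.5%, 42.3% and 45.8% were cancer cells. The rest differed between libraries: T cells were 38.4% of dividing cells in control and 8.98%, 5.96% and 8.51% in the treated libraries, while macrophages and monocytes were 1.75%, 21.5%, 21.6% and 15.6%. These shares follow how many cells of each class a library holds. The control library held 6198 T cells and 556 macrophages and monocytes, and the combo library 1300 and 4381.

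Gene by gene, all 40 members were at a higher level in the cancer cells of each treated library than in control. Of all genes measured, 66.5%, 64.1% and 64.8% were higher there. The level is CPM of all UMIs of the class, and every member had the 10 UMIs over both libraries that a ratio required. The median member was 0.62, 1.20 and 1.04 higher than control on the log2 scale, and the median of all genes was 0.17, 0.20 and 0.21 higher. No member reached a 2-fold higher level in anti-PD-1, where 6.89% of 14644 genes did. In anti-LIF 30 of 40 members reached it against 11.8% of 14514 genes, and in combo 23 of 40 against 11.1% of 14817 genes. The replication members had medians of 0.57, 1.12 and 1.18 and the mitosis members 0.64, 1.25 and 0.99. With the 10% mitochondrial limit the medians of all members were 0.45, 0.85 and 0.83.

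**Figure D2:**
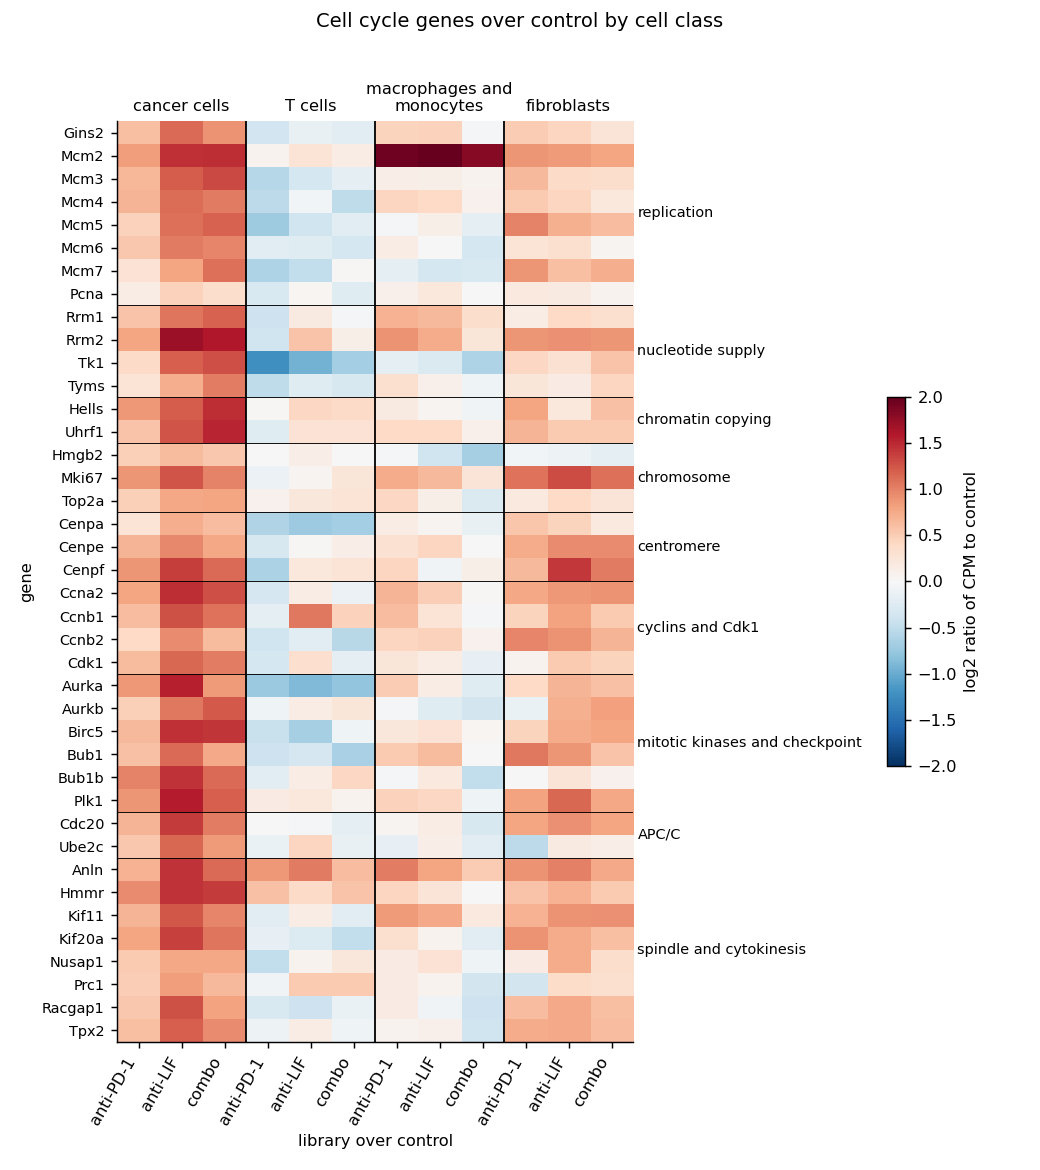
Log2 ratio of each member's level (CPM of the class) in the 3 treated libraries over control, with a row per gene and a block of 3 columns per class; the colour scale is limited to 2 in either direction. All 40 members are above control in the 3 cancer cell columns, while T cell columns hold both signs and the highest macrophage value is Mcm2 at 1.99 in anti-LIF.

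Rrm2, the regulated subunit of the enzyme that makes DNA building blocks, stood at 93.9, 162, 306 and 286 CPM in cancer cells. Its log2 ratios to control were 0.79 [0.73 to 0.84], 1.70 [1.65 to 1.76] and 1.61 [1.56 to 1.66], the highest of all members in anti-LIF and in combo. In T cells Rrm2 was at 75.7, 57.3, 113 and 82.1 CPM, a different order with anti-PD-1 lowest. In macrophages and monocytes it was at 33.3, 62.8, 56.1 and 39.6 CPM, with both single antibodies above control. Tk1, which salvages thymidine, was at 28.1, 36.7, 64.6 and 68.3 CPM in cancer cells and at 30.5, 12.9, 15.6 and 18.8 CPM in T cells. It was the member with the lowest T cell ratio in anti-PD-1, -1.23 [-1.81 to -0.73], and in anti-LIF, -0.94 [-1.61 to -0.38]. Tyms, which makes thymidylate, was at 40.6, 49.3, 67.5 and 83.0 CPM in cancer cells. Combo stood above anti-LIF for both thymidine genes, by a smaller step for Tk1.

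Of the 6 helicase subunits, 4 had 1 order of values in cancer cells. Mcm2, Mcm4 and Mcm5 had close values in anti-LIF and combo, and their order between these 2 libraries was not tested. Mcm2 was at 27.5, 48.9, 75.7 and 76.8 CPM, Mcm3 at 52.2, 83.1, 121 and 131 CPM, Mcm5 at 44.6, 61.1, 95.5 and 101 CPM and Mcm7 at 51.1, 62.7, 88.0 and 109 CPM, each lowest in control and highest in combo. Mcm4 was at 32.7, 52.7, 70.7 and 67.2 CPM and, like Mcm6, highest in anti-LIF. The helicase cofactor Gins2 was as well, at 9.87 CPM in control, 21.6 CPM in anti-LIF and 18.3 CPM in combo, while Rrm1, the large subunit of the Rrm2 enzyme, reached 131 CPM in combo from 57.8 CPM in control. In T cells Mcm5 was at 106, 65.1, 80.7 and 90.5 CPM, so control was the highest T cell library and the lowest cancer cell library. In control the level in T cells was 1.25 above that in cancer cells on the log2 scale, and in combo it was -0.15. Mcm2 in macrophages and monocytes was at 7.58 CPM in control (15 UMIs) and between 27.6 and 31.0 CPM in the treated libraries (418, 401 and 543 UMIs), ratios of 1.94 [1.25 to 2.84], 1.99 [1.30 to 2.89] and 1.82 [1.13 to 2.71]. Mcm5 in the same cells was at 50.5, 49.4, 55.0 and 44.3 CPM, with intervals of all 3 ratios that included 0, so the subunits of 1 complex differed there. Uhrf1 and Hells, which maintain DNA methylation and chromatin behind the fork, were at 20.6, 30.7, 49.1 and 59.4 CPM and at 18.9, 34.4, 43.7 and 52.5 CPM in cancer cells. Both were highest in combo. Pcna was at 319, 353, 437 and 409 CPM in cancer cells and had the lowest cancer cell ratio of all members in each treated library, 0.15, 0.46 and 0.36.

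Most mitotic genes were highest in anti-LIF rather than in combo. Plk1, the kinase that drives entry and exit from mitosis, was at 16.5, 30.2, 48.9 and 37.7 CPM in cancer cells, with log2 ratios of 0.88 [0.74 to 1.01], 1.57 [1.44 to 1.70] and 1.19 [1.07 to 1.32]. Aurka, the kinase of the spindle poles, was at 10.4, 19.0, 30.7 and 18.9 CPM. Its level in combo was that of anti-PD-1, and its ratio of combo to anti-LIF, -0.70, was the lowest of all members. Racgap1, which organises the cleavage furrow, was at 86.8, 126, 211 and 151 CPM, and its ratio of combo to anti-LIF was -0.48. Between combo and anti-LIF, 9 of 14 replication members were higher in combo (median 0.08), and 2 of 26 mitosis members were (median -0.26), Top2a at 0.02 and Aurkb (Aurora B, the kinase of the centromere and midzone) at 0.17. Of all genes, 48.6% were higher in combo. No member differed 2-fold in that comparison, where 3.84% of genes were higher and 2.63% lower by that much. The difference of the 2 sets was not tested, and with the 10% mitochondrial limit the median of all members was -0.01, against -0.12.

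Other mitotic genes were also lowest in the control cancer cells. Cdk1 was at 75.2, 117, 167 and 153 CPM, and its partner Ccna2 (cyclin A2) at 39.9, 69.0, 111 and 97.6 CPM. Bub1b, a kinase of the spindle checkpoint, was at 7.22, 14.3, 19.7 and 15.8 CPM and had the highest ratio in anti-PD-1, 0.99 [0.79 to 1.18]. Hmmr, a spindle protein, followed with 17.5, 33.6, 47.6 and 46.3 CPM and 0.94 [0.82 to 1.07]. Birc5 (survivin), which places Aurora B, was at 48.2, 75.7, 133 and 129 CPM. Its combo level lay close to that of anti-LIF, as did that of Top2a at 174, 243, 300 and 303 CPM. Mki67, the gene of the Ki-67 coat of mitotic chromosomes, was at 50.6, 93.2, 121 and 101 CPM. Kif11, a kinesin motor of the spindle, was at 21.4, 34.3, 50.7 and 42.3 CPM, and Kif20a, a kinesin of cytokinesis, was 0.79, 1.37 and 1.07 above control. Tpx2, which builds spindle microtubules, was at 35.3, 53.7, 81.3 and 67.9 CPM, and Cdc20, which activates the anaphase-promoting complex, at 24.4, 39.2, 64.6 and 49.5 CPM. Bub1, Cenpe and Nusap1 had combo ratios to control of 0.75, 0.77 and 0.77. In T cells Mki67 was at 104, 96.6, 108 and 123 CPM, a log2 ratio to cancer cells of 1.05 in control and of -0.16 in anti-LIF.

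**Figure D3:**
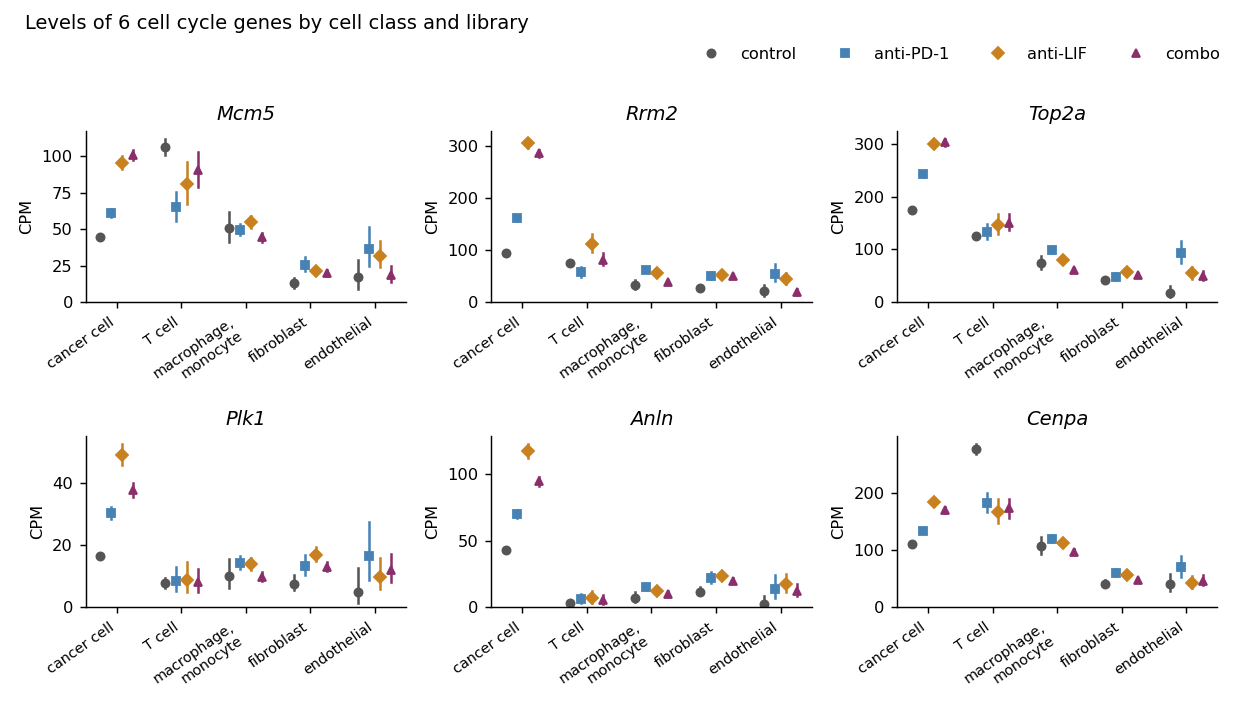
Levels of 6 members (y axis, CPM of the class's UMIs, with 95% Poisson intervals) in 5 classes and the 4 libraries. Cancer cells lie highest for Anln in every library (42.8 to 117 CPM against 3.48 to 6.88 CPM in T cells), and T cells lie above cancer cells for Cenpa in control (278 against 111 CPM).

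Anln (anillin, which links actin to the cleavage furrow) separated cancer cells and T cells more than the libraries. It was at 42.8, 69.6, 117 and 94.3 CPM in cancer cells and at 3.48, 6.23, 6.88 and 5.20 CPM in T cells. Cenpa, the histone of centromeres, was at 278, 183, 168 and 173 CPM in T cells and at 111, 134, 184 and 170 CPM in cancer cells. Its T cell ratios to control were -0.60 [-0.75 to -0.46], -0.72 [-0.91 to -0.55] and -0.68 [-0.83 to -0.54], so T cells were lower where cancer cells were higher. T cells over cancer cells were at 1.32 and 0.45 in control and anti-PD-1 and at -0.13 and 0.03 in anti-LIF and combo, where the classes lay close together. Hmgb2 was at 728, 725, 798 and 731 CPM in T cells, with no order among libraries beyond 0.13, and at 255, 354, 394 and 370 CPM in cancer cells. In macrophages and monocytes it was at 261, 254, 199 and 165 CPM, with a ratio of -0.66 [-0.80 to -0.52] in combo.

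Against the cancer cells of its own library, the median member of T cells was at 0.05 on the log2 scale in control and at -0.94, -1.22 and -1.03 in the treated libraries. By set, the replication members of T cells were at 0.56, -0.33, -0.47 and -0.66 and the mitosis members at -0.42, -1.32, -1.61 and -1.43, so the mitosis members were the lower set in each library. Members at least 2-fold lower in T cells numbered 7, 20, 23 and 23 of 40, against 25.5%, 25.8%, 27.8% and 26.1% of all genes. Macrophages and monocytes had medians of -0.65, -0.90, -1.55 and -1.73, with 10, 17, 31 and 36 members 2-fold lower against 21.5%, 24.9%, 27.4% and 27.8% of all genes. Fibroblasts had 32, 36, 40 and 40 members 2-fold lower, against 18.2%, 21.8%, 25.0% and 23.9%. As shares of 40, the counts in control T cells and in control macrophages are at or near the background.

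The host classes had no common direction over control. In T cells 7, 24 and 18 of 40 members were above control, with medians of -0.30, 0.10 and -0.09 against 0.11, 0.08 and 0.11 for all genes. Of all genes, 59.6%, 55.5% and 58.0% were above control. No T cell member was 2-fold higher in anti-PD-1, where 8.18% of genes were, and 2 were in anti-LIF, where 10.5% were: Ccnb1 (cyclin B1) at 1.05 [0.55 to 1.51] and Anln at 1.03 [-0.12 to 1.96]. Tk1 alone was 2-fold lower in anti-PD-1, where 4.10% of genes were. In combo the ratios ran from -0.79 (Aurka) to 0.62 (Anln). Ccnb1 was at 14.3, 12.5, 29.4 and 19.6 CPM in T cells and at 38.6, 59.4, 93.7 and 82.1 CPM in cancer cells.

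In macrophages and monocytes 33, 33 and 15 members were above control, with medians of 0.31, 0.17 and -0.07 beside 0.10, 0.07 and 0.06 for all genes. Of all genes, 58.8%, 55.6% and 54.4% were above control. Mcm2 was 2-fold higher in each treated library and Anln in anti-PD-1 only, at 1.03 [0.30 to 1.97], against backgrounds of 7.45%, 9.71% and 10.4%. Combo lay below anti-PD-1 for all 40 members, with a median of -0.42, and below anti-LIF for 38 of 40 (not Cenpf and Mcm7), with a median of -0.32. Of all genes, 44.4% were higher in combo than in anti-PD-1 (median -0.045) and 50.3% were higher than in anti-LIF (median 0.002). The lowest were Aurka at -0.76 and Top2a at -0.70 against anti-PD-1. Top2a was at 74.3, 99.1, 80.9 and 61.1 CPM in these cells. This order of libraries is that of the dividing share. In contrast, cancer cells of combo lay above those of anti-PD-1 for 39 of 40 members (Aurka was at -0.01), with a median of 0.34. Of all genes in cancer cells, 52.6% were higher in combo than in anti-PD-1, with a median of 0.02.

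Fibroblasts had 35, 39 and 39 members above control and medians of 0.59, 0.70 and 0.58, where the median gene lay at 0.01 in anti-PD-1 and 0.02 in combo. Of all genes, 51.0%, 49.9% and 51.8% were above control. Those 2-fold higher numbered 2, 4 and 2, against 4.93%, 5.52% and 5.60% of all genes. Mki67 was among them in each library, at 17.2, 36.7, 42.7 and 37.3 CPM. The others were Bub1 in anti-PD-1 at 1.05, Plk1 at 1.15 [0.67 to 1.69] and Anln at 1.01 in anti-LIF, and Cenpf in anti-LIF and combo. Cenpf, a kinetochore protein, was at 5.68, 8.92, 15.4 and 11.8 CPM. Ube2c, which feeds ubiquitin to the anaphase-promoting complex, went the other way in anti-PD-1, at 44.9 CPM in control and 31.3 CPM there.

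Endothelial cells had medians of 1.56, 0.89 and 0.70 over control, with 28 of 39, 19 of 39 and 16 of 40 measured members 2-fold higher against 8.76%, 9.46% and 9.08% of all genes. These ratios rest on few UMIs in control: Prc1, which bundles the microtubules of the midzone, had 3 UMIs there and 27, 49 and 76 in the treated libraries, a ratio of 2.91 [1.41 to 5.47] in anti-PD-1. Top2a was at 18.3, 93.4, 55.2 and 49.6 CPM, with anti-PD-1 highest. Bub1b was at 0 UMIs in control and at 7, 8 and 19 UMIs in the treated libraries. The limit of 10 UMIs is over both libraries, so Bub1b passed it in combo alone, where it had the highest ratio, 3.64. The dividing share did not follow these levels in combo, with a log2 ratio to control of -0.07 [-0.88 to 0.80]. In anti-LIF the interval of the share's ratio also included 0, at 0.48 [-0.30 to 1.34].

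Dividing cells of the classes also differed in the balance of the sets. The share of dividing cancer cells with more mitosis than replication UMIs (Hmgb2 not counted) was 57.3%, 55.9%, 55.6% and 50.7%. In T cells it was 27.1%, 26.3%, 29.7% and 24.2%, below cancer cells and macrophages in every library. Macrophages and monocytes had 50.0%, 48.9%, 42.5% and 48.9%, and fibroblasts 72.5%, 55.1%, 56.5% and 66.9%. Pcna counts among the replication UMIs, and it was seen in 62.1% to 72.0% of dividing T cells and in 37.2% to 41.2% of dividing cancer cells. The balance without Pcna was not computed.

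**Figure D4:**
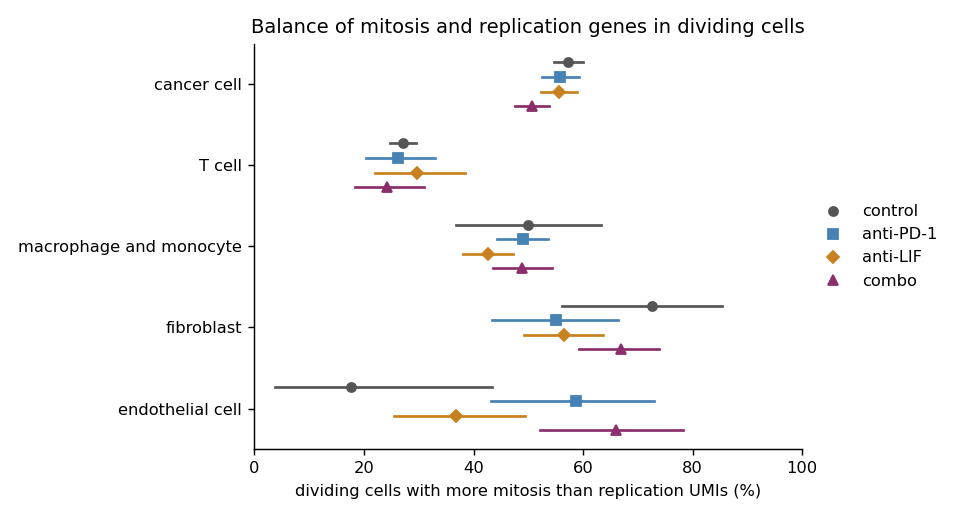
Share of dividing cells with more UMIs of mitosis than of replication members (x axis, percent, 95% counting intervals) in 5 classes and the 4 libraries. T cells lie between 24.2% and 29.7%, below the cancer cells at 50.7% to 57.3%; the control endothelial point at 17.6% rests on 17 cells.

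Genes that decide between cycle and rest in G1 were read from a list of 36 cyclins, kinases, inhibitors and regulators outside the members. In cancer cells 35 were measured, of which 2, 12 and 10 were at least 2-fold higher than control and 0, 1 and 1 lower, with medians of 0.42, 0.64 and 0.59. Over all genes 6.89%, 11.8% and 11.1% were that much higher and 5.45%, 8.51% and 7.60% that much lower. In T cells 1, 2 and 2 of 35 were 2-fold higher, against 8.18%, 10.5% and 10% of all genes, and 1, 4 and 4 were 2-fold lower, against 4.10%, 7.59% and 5.96%. In macrophages and monocytes 2, 3 and 1 were higher, against 7.45%, 9.71% and 10.4%, and 2, 2 and 3 lower, against 4.56%, 7.37% and 8.62%. The D cyclins, which open the way out of G1, differed by class. Ccnd1 was at 282, 419, 513 and 479 CPM in cancer cells and at 21.1, 27.7, 13.8 and 25.2 CPM in T cells. Ccnd2 was at 269, 393, 384 and 496 CPM in T cells and at 104, 75.4, 78.7 and 72.0 CPM in cancer cells, the reverse order of the classes.

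Ccnd3 was higher in the treated libraries in cancer cells and in several host classes: 24.0, 42.4, 37.2 and 35.2 CPM in cancer cells, 39.5, 113, 102 and 70.9 CPM in T cells, 15.2, 43.6, 49.0 and 35.2 CPM in macrophages and monocytes, and 20.1, 45.6, 40.5 and 37.1 CPM in fibroblasts. The summed level of the members in T cells was not above control in any treated library, so this cyclin and the members had different orders there. Cdk6, a partner of the D cyclins, was at 210, 196, 111 and 146 CPM in T cells, with anti-LIF lowest. Cdkn1a (p21, an inhibitor of the cyclin kinases) was at 620, 723, 784 and 819 CPM in macrophages and monocytes and at 241, 154, 177 and 149 CPM in cancer cells, where control was highest.

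Cdkn2a, the locus of the inhibitors p16 and p19Arf, had 22, 7, 6 and 7 UMIs in all cancer cells together, 0.336, 0.253, 0.348 and 0.240 CPM, and 11.6, 6.35, 4.19 and 3.41 CPM in fibroblasts. Its neighbour Cdkn2b was at 0.214, 0.289, 1.68 and 1.27 CPM in cancer cells (14, 8, 29 and 37 UMIs) and at 16.5 to 20.3 CPM in fibroblasts. Both were therefore lower in the cancer class than in fibroblasts of the same library. Myc, a growth factor response gene that drives entry into the cycle, went against the members: 501, 430, 220 and 230 CPM in cancer cells, a log2 ratio of -1.19 [-1.23 to -1.14] in anti-LIF and -1.12 [-1.16 to -1.09] in combo. In macrophages and monocytes Myc was at 81.8, 72.4, 45.7 and 50.0 CPM. Foxm1, which drives the mitotic genes, followed them with 19.1, 32.6, 50.1 and 38.8 CPM in cancer cells. E2f2, an activating E2F, was at 2.38, 3.18, 7.42 and 7.38 CPM there.

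**Figure D5:**
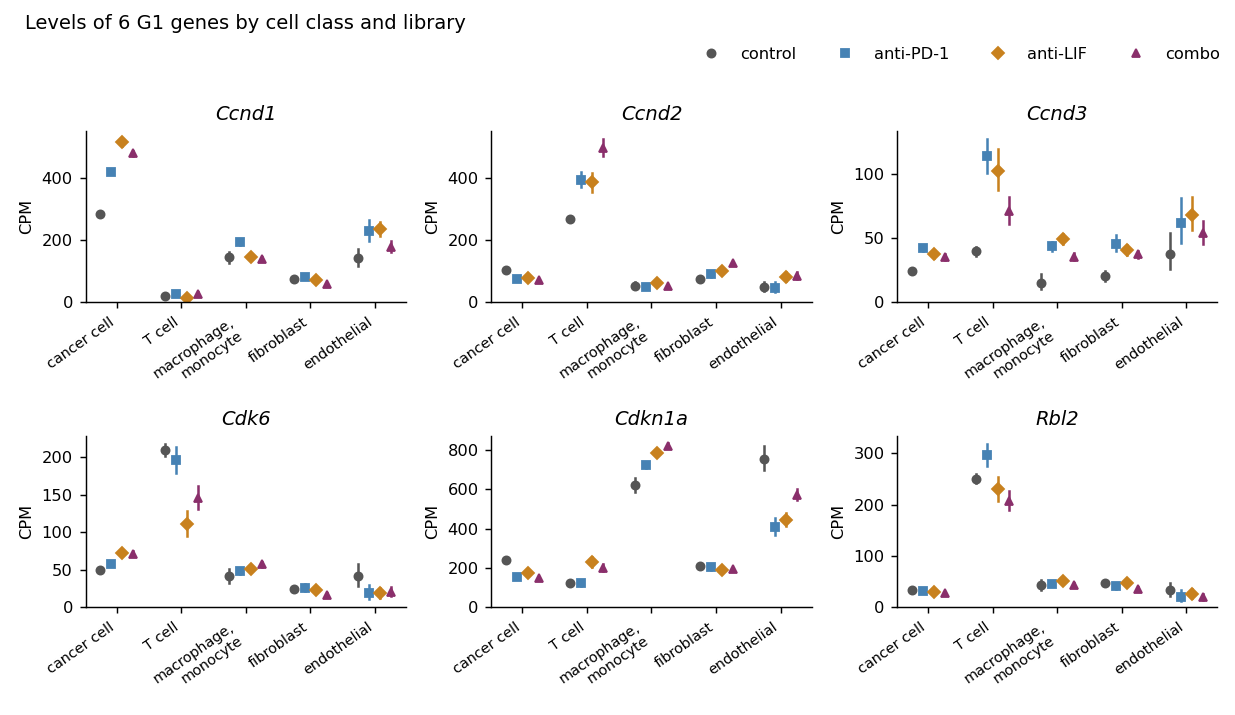
Levels of 6 G1 genes (y axis, CPM of the class's UMIs, with 95% Poisson intervals) in 5 cell classes and the 4 libraries. Ccnd1 is high in cancer cells (282 to 513 CPM) and low in T cells (13.8 to 27.7 CPM), Ccnd2 is the reverse, and Cdkn1a is higher in macrophages and monocytes (620 to 819 CPM) than in cancer cells (149 to 241 CPM).

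The genes outside the members whose level was most like the sum of the members were found over 40 class and library sums of at least 50 cells and 12073 genes. Smc4, a condensin subunit, came first with a Pearson r of 0.887, followed by Dnmt1, the maintenance DNA methyltransferase, at 0.877 and Cdk6 at 0.869. Then came Rbbp4, Hnrnpm, Lig1, Stmn1, Hnrnpu, Rcc2 and Ywhaz, from 0.858 down to 0.842. Smc4, Stmn1 and Lig1, a DNA ligase, were on the list of other division genes. The sums of 1 library share its depth and free RNA, so r is a description and carries no p.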

How the data were processed

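Per the labels, 1 library per group was made with the SeekOne MM 3′ kit. The deposited matrices hold counts, whole-number UMIs per gene and cell with no normalization, and the deposited lists of barcodes and features hold names only (other content). The submitters' processing notes name mm10 and Seurat 4.0.3. Aligner, counter and cell calling: not given in the sources used here.

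Barcodes needed 200 genes or more and a mitochondrial share of 20% or less, which kept 18640 cells in the control library and 14392, 14014 and 16397 in the anti-PD-1, anti-LIF and combo libraries. In the same order, 81.4%, 68.7%, 68.0% and 73.8% had 1000 UMIs. The lowest UMI count was 623 in control and 500 elsewhere. Libraries shared 1.84% to 2.27% of barcodes, by pair. A cell joined a class with at least 2 marker UMIs and a marker share over a limit per 10000 UMIs set after seeing the data. Cells of 2 classes were set aside, and no doublet caller was run. Classes rebuilt this way can differ from the study's.

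Shares carry Clopper-Pearson intervals, levels exact Poisson intervals and ratios exact conditional intervals (python 3.11.15, numpy 2.4.6, scipy 1.17.1, pandas 2.3.3, matplotlib 3.10.9), after tests on simulated data. Log2 ratios used 0.5 added counts and genes with at least 10 UMIs over both libraries. Named members were those with the 3 highest and 3 lowest ratios per class and comparison and others shown by role. The members, gene lists and markers were chosen with earlier results of these data known. Alternatives changed the threshold, depth, members, gate, mitochondrial limit, added count, filter and averaging.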

Additional observations from a re-analysis of the deposited data

Results flagged for a closer look

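In their dividing share as reported, cancer cells and T cells lay on opposite sides of control. The log2 ratio of the dividing share to control was 0.50 in cancer cells and -0.37 in T cells for anti-PD-1, 1.11 and -0.35 for anti-LIF, and 0.96 and -0.49 for combo. Each group is 1 library and all comparisons use the same control, so the difference between the classes was not tested. In anti-LIF the summed member level of T cells (3337 CPM, against 3372 CPM in control) did not move with the share, and the interval of the share's ratio included 0 with 5 members as threshold and at 2000 UMIs. The share of T cells with an Mki67 UMI was not highest in control (5.13%, against 5.38%, 6.40% and 4.76%).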

How the results depend on the processing

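No paired analysis was possible because each group is 1 library. Only cancer cells, T cells, and macrophages and monocytes were recomputed under other settings. The other classes and the cell subsets were not. Each value as reported had a band around it, which for a share was its counting interval. For a median the band was the median counting error of a single member, which is not the counting error of a median. Of 195 values under other settings, 167 stayed within the band and 28 moved beyond it. No value whose band excluded 0 changed sign. In contrast, 7 values whose band included 0 did change sign. For shares these were combo to anti-PD-1 in T cells (0.02 at 2000 UMIs) and combo to control in macrophages and monocytes (0.02 at 500 UMIs). The rest were medians in those classes. Of 120 alternative values of shares, 5 had an interval that came to include 0 (combo to anti-LIF in cancer cells, anti-LIF to control in T cells) and 8 one that no longer did (all in macrophages and monocytes over control). Those that moved follow, as log2 ratios of the dividing share, and the cause was not tested. In cancer cells, with 2 members as threshold, the ratios were 0.36 (anti-PD-1), 0.83 (anti-LIF) and 0.69 (combo) to control and 0.33 for combo to anti-PD-1. With 5 members, anti-LIF was at 1.39 and combo at 1.19. At 500 UMIs, anti-LIF was at 1.36 and combo to anti-LIF at -0.29. At 2000 UMIs, anti-LIF was at 0.92 and combo at 0.79. With the 10% mitochondrial limit, anti-LIF was at 0.83, combo at 0.73 and combo to anti-PD-1 at 0.32. With a gate on Krt8, Krt18 and Krt7 alone, chosen after seeing the data, the ratios to control were 0.37, 0.96 and 0.79. In T cells, anti-PD-1 was at -0.63 with 5 members and combo at -0.25 with 2. In macrophages and monocytes, anti-PD-1 to control was 0.78 at 500 UMIs. Combo to anti-PD-1 was -0.40 with 2 members, -0.86 with 5 and -0.33 at 2000 UMIs, and combo to anti-LIF was -0.40 with 2 members.

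For the median member of cancer cells over control, averaging CPM over cells gave 0.48 in anti-PD-1, and the 10% mitochondrial limit gave 0.45, 0.85 and 0.83, with combo to anti-LIF at -0.014. Depth limits the small classes: the neutrophil share of anti-PD-1 over control was 1.14 [-0.82 to 3.64], and no ratio was read for B cells, neutrophils or muscle fibres.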
